A study of Mus musculus with 9 samples.

Results

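Catecholamines raise the rate and force of the heartbeat through receptors on the myocyte. The beta-1 receptor (Adrb1) couples to the stimulatory G protein, which switches on adenylyl cyclases (Adcy5 and Adcy6) that make cyclic AMP, and cyclic AMP frees the catalytic subunits of protein kinase A. Phosphodiesterases (Pde3a and Pde4d) break cyclic AMP down, and A-kinase anchoring proteins (Akap5 and Akap12) hold the kinase beside its substrates, among them the receptor itself and calcium channels. The alpha-1 receptors (Adra1a and Adra1b) couple instead to the Gq class of G proteins, which releases calcium from internal stores. These 9 genes, 3 receptors, 2 cyclases, 2 phosphodiesterases and 2 anchoring proteins, were taken by symbol from the 30128 genes of the deposited table. Of the 3 receptors, 1 is a beta and 2 are alpha-1 receptors. All 9 were found and all 9 passed the filter on low values, an RPKM (reads scaled to gene length and library depth) of at least 0.5 in at least 3 libraries.

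Messenger RNA of mouse left ventricle was measured in 9 libraries, 3 in each of 3 groups. The control group has the genotype Wild Type, and its labels name no virus. Both other groups are db/db, a mutation of the leptin receptor gene that makes mice obese and diabetic, and received adeno-associated virus of serotype 9, either empty (AAV9_null, here null virus) or carrying USP28, a deubiquitinating enzyme (AAV9_USP28, here USP28 virus). Expression of USP28 is driven by the promoter of cardiac troponin T, a cardiomyocyte gene. With no virus named for control, genotype and virus cannot be told apart in any comparison with control, and the sources used here give no strain, sex, age or time after injection. Nothing in the labels states that each library came from its own animal, so the p-values measure spread among samples that may be technical.

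Groups are named as labelled. Usp28, as counted, was at 12.6, 13.2 and 13.9 scaled RPKM in control, 10.0, 7.55 and 7.81 with null virus, then 9.84, 11.2 and 11.3 with USP28 virus. The USP28-virus values lay below all control values and overlapped null virus (log2 0.35, limma adjusted p = 0.21), so the counted gene does not bear out the label, and whether the vector transcript is counted is not stated.

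Depth recovered from the values was 35970332 to 56497662 reads per library. The ventricular light chain Myl2 was at 1522 to 3686 scaled RPKM in all 9 libraries. A pair of libraries stood apart. Null-virus replicate 1 had a mean absolute departure from its group of 0.334 log2 units, where the other 8 libraries had 0.144 to 0.214. USP28-virus replicate 1 held atrial markers (Myl7, Myl4, Sln and Nppa) at a summed level of 1435, against 80.0 to 341 elsewhere, with Myl7 at 90.1 against 0 to 4.72. Values without these libraries are given where a call changed. Levels are RPKM scaled between libraries by a trimmed mean of M values, and differences are between group means of log2(scaled RPKM + 0.1) in limma, called where the Benjamini-Hochberg adjusted p over all 14104 genes tested was under 0.05.

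Among the 9 genes, Akap5 moved most. Its level in null-virus hearts was 11.9% of the control level and in USP28-virus hearts 6.12 times the null-virus level. Adra1b rose in null-virus hearts against control, and Akap12 rose in USP28-virus hearts against control. Adrb1, Adra1a, Adcy5, Adcy6, Pde3a and Pde4d did not pass in any of the 3 comparisons. For null virus against control 2 of 9 members passed, where 22.4% of all genes tested passed (10.2% higher and 12.2% lower), so the count is about that of genes at large. For USP28 virus against null virus 1 of 9 passed, against a background of 0.425% (0.269% higher and 0.156% lower). For USP28 virus against control 1 of 9 passed (Akap12, higher), against 11.8% (5.32% higher and 6.53% lower). At an unadjusted p under 0.05 the counts were 3, 2 and 2 of 9, where all genes gave 37.9%, 16.6% and 28.4%. The 3 comparisons share groups, so their values for a gene are not independent of each other.

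**Figure D1:**
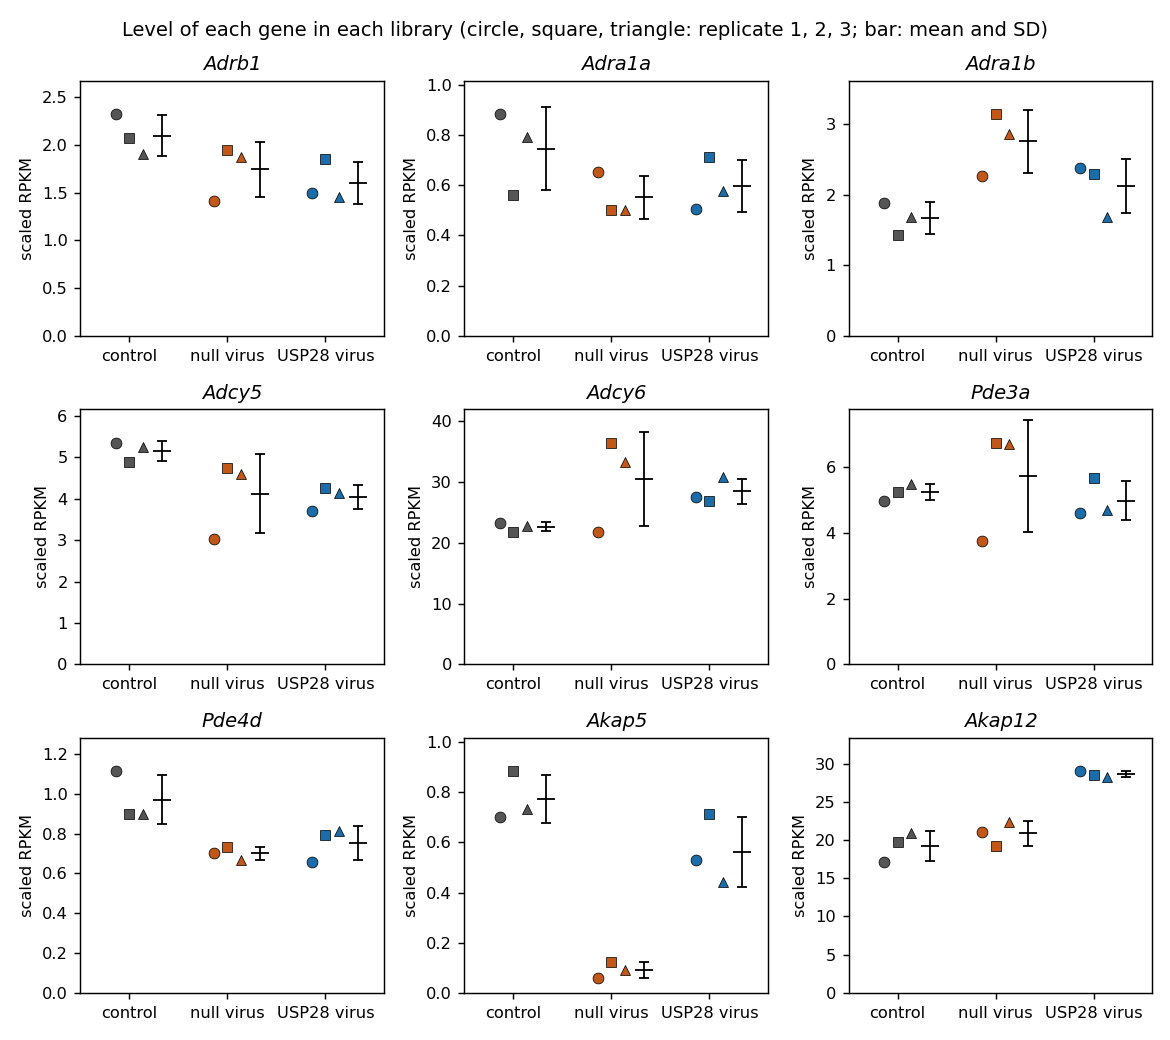
Scaled RPKM (vertical axis, from 0) of each of the 9 genes in the 9 libraries, by group, with the mean and SD of the 3 libraries of a group beside them. The 3 null-virus values of Akap5 (0.0583 to 0.125) lie below all 6 others, and the 3 USP28-virus values of Akap12 (28.3 to 29.0) lie above all 6 others.

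Levels per gene length placed the cyclase Adcy6 and the anchoring protein Akap12 far above the rest in every group. In control hearts the order was Adcy6 (22.6 scaled RPKM), Akap12 (19.2), Pde3a (5.23), Adcy5 (5.16), Adrb1 (2.10), Adra1b (1.66), Pde4d (0.970), Akap5 (0.773) and Adra1a (0.745). Pde3a and Adcy5 overlapped across the control libraries, as did Akap5 and Adra1a, and the other neighbours in the order did not. With null virus Akap5 was last, its 3 values below all those of Adra1a (0.552), the next lowest. With USP28 virus Akap12 (28.6) and Adcy6 (28.4) overlapped at the top, and Pde4d (0.754), Adra1a (0.597) and Akap5 (0.562) overlapped with their neighbours at the bottom.

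Akap5 encodes the scaffold also called AKAP79 in humans and AKAP150 in rodents, which binds protein kinase A, protein kinase C and calcineurin near membrane receptors and channels. The gene lies on chromosome 12 at 76324891 to 76334153 (GRCm38, plus strand) and is counted over 2 exon blocks. In the order of replicates 1, 2 and 3, used throughout, its scaled RPKM was 0.702, 0.884 and 0.734 in control, 0.0583, 0.125 and 0.0922 with null virus, then 0.529, 0.715 and 0.442 with USP28 virus. Null-virus values were the lowest in the study and overlapped neither other group, whereas USP28-virus and control values overlapped. Akap5 fell by 2.20 log2 units from control (0.773 ± 0.0968, SD, n = 3) to null virus (0.0918 ± 0.0333; SE 0.26, limma adjusted p = 0.0015). It rose by 1.78 between null virus and USP28 virus (0.562 ± 0.139; SE 0.26, adjusted p = 0.038), with all 3 USP28-virus libraries above all 3 null-virus libraries. USP28 virus against control gave a log2 difference of -0.41 (95% interval -1.01 to 0.18, adjusted p = 0.34), which did not pass. Akap5 passed the filter through control and USP28-virus libraries, which hold the values of at least 0.5.

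The reads behind these values were few but separate. Akap5 held 266, 258 and 252 reads in the control libraries, 12, 34 and 28 with null virus, then 199, 204 and 148 with USP28 virus. The 95% exact Poisson intervals of the null-virus reads, which cover counting error only, were 6.20 to 21.0, 23.5 to 47.5 and 18.6 to 40.5. On the deposited RPKM the highest upper bound with null virus was 0.183 and the lowest lower bound elsewhere 0.377, in USP28-virus replicate 3. The fall against control passed under all 19 alternative settings that could test the gene (adjusted p 0.00024 to 0.012), and the rise with USP28 virus under 6 of 19 (0.011 to 0.18). Its size moved with the pseudocount, from log2 0.51 with 1 to 2.52 with 0.01, and was 2.56 with limma voom. With 1 library left out, the rise passed in 1 of 9 fits (adjusted p 0.012 to 0.18). That fit left out null-virus replicate 1 (log2 1.66, adjusted p = 0.012). Without USP28-virus replicate 1 the rise was 1.80 (adjusted p = 0.14).

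**Figure D2:**
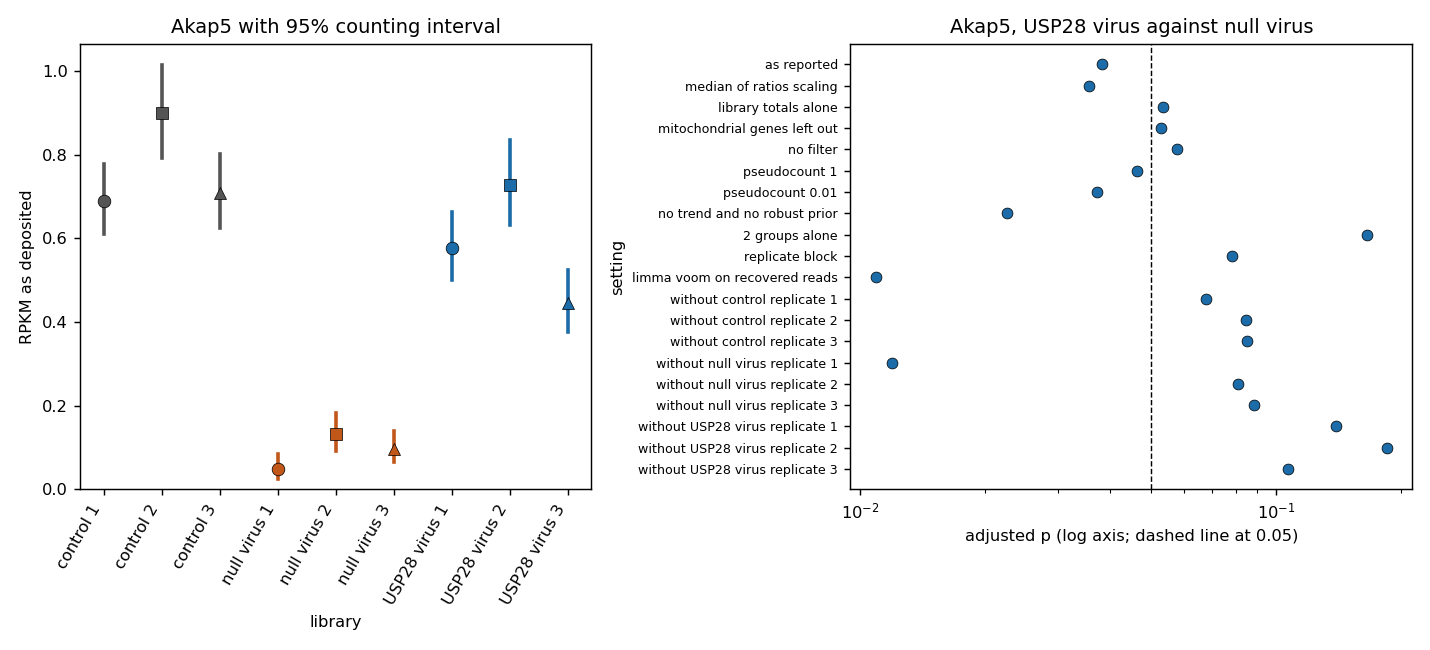
Left: RPKM of Akap5 as deposited (vertical axis, from 0) in each library, with the 95% counting interval of its reads. Right: adjusted p (horizontal log axis, dashed line at 0.05) of the difference between USP28 virus and null virus as reported and under each alternative setting. The intervals of the null-virus libraries end at 0.183 or lower and those of the other 6 begin at 0.377 or higher, while the adjusted p lies between 0.011 and 0.18, on both sides of the line.

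Genes that followed Akap5 most closely over the 9 libraries were sought among all those tested, by the root mean square difference of log2 values centred on each gene's own mean. The nearest was Col15a1, a basement membrane collagen, at a distance of 0.20, where Akap5 itself varied by 0.97 around its mean. Col15a1 was at 6.98, 10.8 and 8.61 scaled RPKM in control, 1.96, 2.41 and 1.61 with null virus, then 6.17, 6.55 and 5.21 with USP28 virus. Next came Cpn2, a subunit of the serum enzyme carboxypeptidase N (distance 0.27), and Timd4, a phosphatidylserine receptor of macrophages (distance 0.28). For each of the 3, as for Akap5, all null-virus values were below all others, which a choice by closeness over the same libraries makes likely. Of 8 fibroblast markers 5 were lower with null virus against control and 1 was higher with USP28 virus against null virus, while their summed level overlapped between the groups (98.1 to 116, 98.7 to 111 and 106 to 116 from control to USP28 virus). Dcn was the largest part of that sum, at means of 53.3, 66.1 and 64.3 in the same order, so the sum says little of the lower markers. Of 8 macrophage markers 3 were lower with null virus against control, and 0 of 8 passed between USP28 virus and null virus. Their sum was 32.8 to 40.5 in control, 24.9 to 30.7 with null virus and 24.8 to 30.7 with USP28 virus. Among all genes 12.2% were lower with null virus against control and 0.269% higher with USP28 virus against null virus. The part of these cells in the Akap5 values was not tested, and in tissue RNA fewer cells of a type and less RNA per cell cannot be told apart.

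Akap12, also called gravin, is a larger scaffold that binds protein kinase A. It lies on chromosome 10 at 4266380 to 4359470 (GRCm38, plus strand). Its scaled RPKM was 17.1, 19.7 and 20.9 in control, 21.1, 19.2 and 22.4 with null virus, then 29.0, 28.5 and 28.3 with USP28 virus. USP28-virus values lay above those of both other groups, which overlapped each other. Against control (19.2 ± 1.94, SD, n = 3) Akap12 rose by 0.57 on the log2 scale with USP28 virus (28.6 ± 0.377; SE 0.10, limma adjusted p = 0.012). The rise was 0.56 without USP28-virus replicate 1 and then missed the threshold (adjusted p = 0.060). Against null virus (20.9 ± 1.62) the difference was 0.45 (SE 0.10, adjusted p = 0.092) and did not pass, and it passed without null-virus replicate 1 (0.45, adjusted p = 0.035). Null virus against control gave 0.12 (95% interval -0.11 to 0.35, adjusted p = 0.43).

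Markers of vascular cells, in which Akap12 is also expressed, were set beside it. The summed level of 9 smooth muscle and pericyte markers was 219 to 261 in control, 212 to 271 with null virus and 259 to 299 with USP28 virus. Rgs5 was the largest part of that sum, at means of 94.5, 117 and 128 in the same order. Against control 2 of 9 were higher and 0 lower with USP28 virus, and 0 higher and 1 lower with null virus. The sum of 8 endothelial markers was 79.5 to 93.8, 97.2 to 122 and 106 to 123. Against control 3 of 8 were higher with null virus and 2 of 8 with USP28 virus, and 0 were lower. Their null-virus sums lay above all control sums, where Akap12 overlapped between these groups. Of all genes 10.2% were higher and 12.2% lower with null virus against control, and 5.32% higher and 6.53% lower with USP28 virus. No marker of either list was at 0 in all libraries. Their part in the Akap12 values was not tested. The nearest genes to Akap12 over the 9 libraries were Fbxw17 (distance 0.080), Parp12 (0.080) and RP24-79I19.5 (0.089), where Akap12 itself varied by 0.26. The ratio of Akap5 to Akap12 within a library, 0.0351 to 0.0448 in control, was 0.00277 to 0.00651 with null virus and 0.0156 to 0.0251 with USP28 virus, so the 3 groups were apart from each other.

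The receptors were low in every library, and of the 3 Adra1b alone passed a test. Adra1b, the alpha-1B receptor (chromosome 11, 43774606 to 43901210, GRCm38, minus strand), was at 1.87, 1.42 and 1.69 scaled RPKM in control, 2.27, 3.14 and 2.86 with null virus, then 2.38, 2.29 and 1.68 with USP28 virus. All null-virus values were above all control values, and USP28-virus values overlapped both groups. Adra1b rose by 0.69 log2 units from control (1.66 ± 0.227, SD, n = 3) to null virus (2.75 ± 0.444; SE 0.18, limma adjusted p = 0.025). That call was close to the threshold. Of 20 alternatives 12 kept it. It was lost with library totals alone, with mitochondrial genes left out, with no filter and in a fit restricted to both groups (adjusted p = 0.073, 0.085, 0.056 and 0.0502). It was kept in 5 of the 9 fits with 1 library left out (adjusted p 0.0079 to 0.094) and was strongest without null-virus replicate 1 (log2 0.83). It was lost without control replicate 2 or 3 (adjusted p = 0.094 and 0.071) and without null-virus replicate 2 or 3 (0.070 and 0.057). USP28 virus (2.12 ± 0.380) was at -0.37 against null virus (95% interval -0.77 to 0.034, adjusted p = 0.33) and at 0.33 against control (-0.076 to 0.73, adjusted p = 0.27). The genes nearest to Adra1b in pattern were Ica1 (distance 0.11), Ssh3 (0.13) and Adck2 (0.13), where Adra1b itself varied by 0.34.

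Adra1a, the alpha-1A receptor (chromosome 14, 66635251 to 66733462), was at 0.882, 0.562 and 0.791 in control, 0.652, 0.502 and 0.502 with null virus, then 0.506, 0.711 and 0.576 with USP28 virus. The groups overlapped. Its log2 difference was -0.36 for null virus against control (SE 0.21, limma adjusted p = 0.23), 0.095 for USP28 virus against null virus (adjusted p = 0.84) and -0.27 for USP28 virus against control (adjusted p = 0.43). Within each library Adra1a was at 0.395 to 0.471 of the level of Adra1b in control, 0.160 to 0.288 with null virus and 0.212 to 0.342 with USP28 virus. Both db/db groups were therefore below control in every library, and they overlapped each other.

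Adrb1, the main beta receptor of the heart (chromosome 19, 56722372 to 56724862, a gene of 1 exon block), was at 2.32, 2.07 and 1.90 in control, 1.41, 1.94 and 1.88 with null virus, then 1.50, 1.85 and 1.46 with USP28 virus. USP28-virus values lay below all control values, and the null-virus values overlapped both groups. The log2 difference was -0.37 for USP28 virus against control (95% interval -0.72 to -0.019, limma adjusted p = 0.16), -0.26 for null virus against control (adjusted p = 0.25) and -0.11 for USP28 virus against null virus (95% interval -0.46 to 0.24, adjusted p = 0.74). Without null-virus replicate 1 the latter pair of values were -0.12 (adjusted p = 0.53) and -0.25 (adjusted p = 0.31). The interval is that of a single gene, and no Adrb1 difference passed over all genes. Adrb1 held 106 to 321 reads per library.

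The cyclases of the cardiomyocyte, Adcy5 and Adcy6, are close relatives that calcium and protein kinase A both inhibit. Adcy6 (chromosome 15, 98589994 to 98607633, minus strand) was at 23.3, 21.8 and 22.8 scaled RPKM in control, 21.7, 36.5 and 33.3 with null virus, then 27.6, 26.9 and 30.8 with USP28 virus. Null-virus replicate 1 lay at the control level and the other null-virus libraries above all others. Adcy6 differed by 0.40 log2 units from control (22.6 ± 0.75, SD, n = 3) to null virus (30.5 ± 7.75; SE 0.18, limma adjusted p = 0.14), and without null-virus replicate 1 by 0.63 (adjusted p = 0.0012). USP28 virus (28.4 ± 2.07) was at 0.33 against control (adjusted p = 0.26) with no overlap, and at 0.32 without null-virus replicate 1 (adjusted p = 0.012).

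A gene on the other strand, Gm29331, shares 495 exonic bases with Adcy6. The counting is not stated to use strand, so reads of the pair in that stretch may not be told apart. Gm29331 was at 7.13 ± 0.954 scaled RPKM (SD, n = 3) in control, 14.4 ± 1.36 with null virus, then 10.1 ± 1.35 with USP28 virus, and rose by 1.01 on the log2 scale with null virus (limma adjusted p = 0.0022). Its part in the Adcy6 values was not tested.

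Adcy5 (chromosome 16, 35154877 to 35305737, plus strand) was at 5.35, 4.88 and 5.24 in control, 3.02, 4.74 and 4.60 with null virus, then 3.70, 4.27 and 4.13 with USP28 virus. All 6 db/db values were below all 3 control values. The log2 difference against control was -0.34 with null virus (SE 0.16, limma adjusted p = 0.16) and -0.35 with USP28 virus (SE 0.16, adjusted p = 0.20), neither past the test. Without null-virus replicate 1 they were -0.14 (adjusted p = 0.28) and -0.35 (adjusted p = 0.014).

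Set within each library, where scaling cancels, the cyclases kept close ratios among the libraries of a group. Adcy5 was at 0.224 to 0.230 of the level of Adcy6 in the 3 control libraries, 0.130 to 0.139 with null virus and 0.134 to 0.158 with USP28 virus. Null-virus replicate 1 had a ratio of 0.139, beside 0.130 and 0.138 in the other null-virus libraries, although both of its levels were the lowest of its group. The log2 ratio was lower by 0.75 with null virus and by 0.69 with USP28 virus than in control (differences of -0.75 and -0.69, exact two-sided permutation p = 0.1 each, the smallest that 3 against 3 allows). Over the 12 ratio comparisons made, the adjusted value of these was 0.17. The db/db groups differed from each other by 0.063 (exact p = 0.7). The exact p was also 0.1 for Adra1a to Adra1b in both comparisons with control and for Akap5 to Akap12 in all 3 comparisons.

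**Figure D3:**
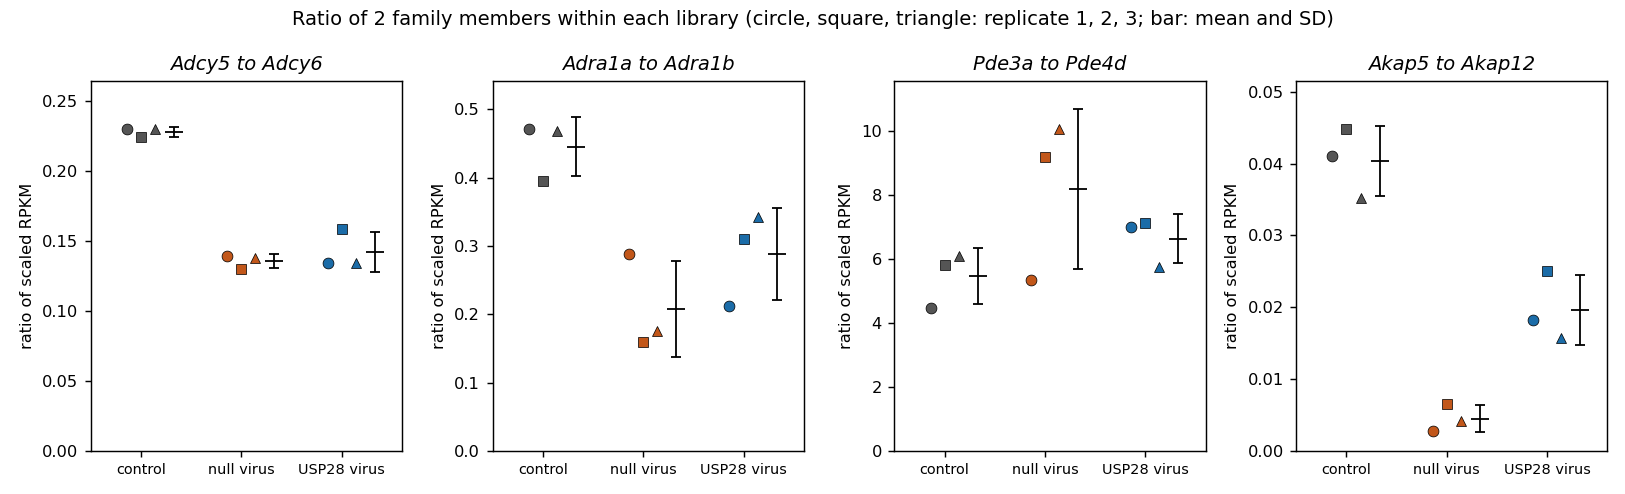
Ratio of the scaled RPKM of a pair of relatives within each library (vertical axes, from 0), by group, with mean and SD. The Adcy5 to Adcy6 ratio is 0.224 to 0.230 in control and 0.130 to 0.158 in the 6 db/db libraries, and the Akap5 to Akap12 ratio separates all 3 groups.

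The phosphodiesterases did not pass in any comparison. Pde3a, which cyclic GMP inhibits and which acts at the sarcoplasmic reticulum (chromosome 6, 141249269 to 141507448), was at 4.98, 5.24 and 5.47 in control, 3.76, 6.73 and 6.70 with null virus, then 4.60, 5.65 and 4.68 with USP28 virus. The null-virus libraries spanned the whole range of the other groups. Null virus against control gave a log2 difference of 0.082 (95% interval -0.39 to 0.56, limma adjusted p = 0.80), and without null-virus replicate 1 one of 0.36 (adjusted p = 0.032). USP28 virus against null virus gave -0.16 (adjusted p = 0.72), and -0.44 without that library (adjusted p = 0.045). Gm28523, on the other strand, shares 741 exonic bases with Pde3a, and its levels (2.0 ± 0.396, 2.11 ± 0.611 and 1.94 ± 0.109 scaled RPKM in the order of control, null virus and USP28 virus) overlapped between groups.

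Pde4d, which is specific to cyclic AMP (chromosome 13, 108449948 to 109953461), was at 1.11, 0.899 and 0.898 in control, 0.702, 0.733 and 0.666 with null virus, then 0.656, 0.793 and 0.813 with USP28 virus. As with Adcy5, all 6 db/db values were below all control values. The log2 difference from control was -0.41 with null virus (SE 0.14, limma adjusted p = 0.069) and -0.32 with USP28 virus (SE 0.14, adjusted p = 0.18). The first passed with limma voom on the recovered reads (-0.47, adjusted p = 0.031) and in limma with neither a trend nor a robust prior (adjusted p = 0.046). The ratio of Pde3a to Pde4d overlapped between groups, at 4.47 to 6.10 in control, 5.36 to 10.1 with null virus and 5.76 to 7.13 with USP28 virus.

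**Figure D4:**
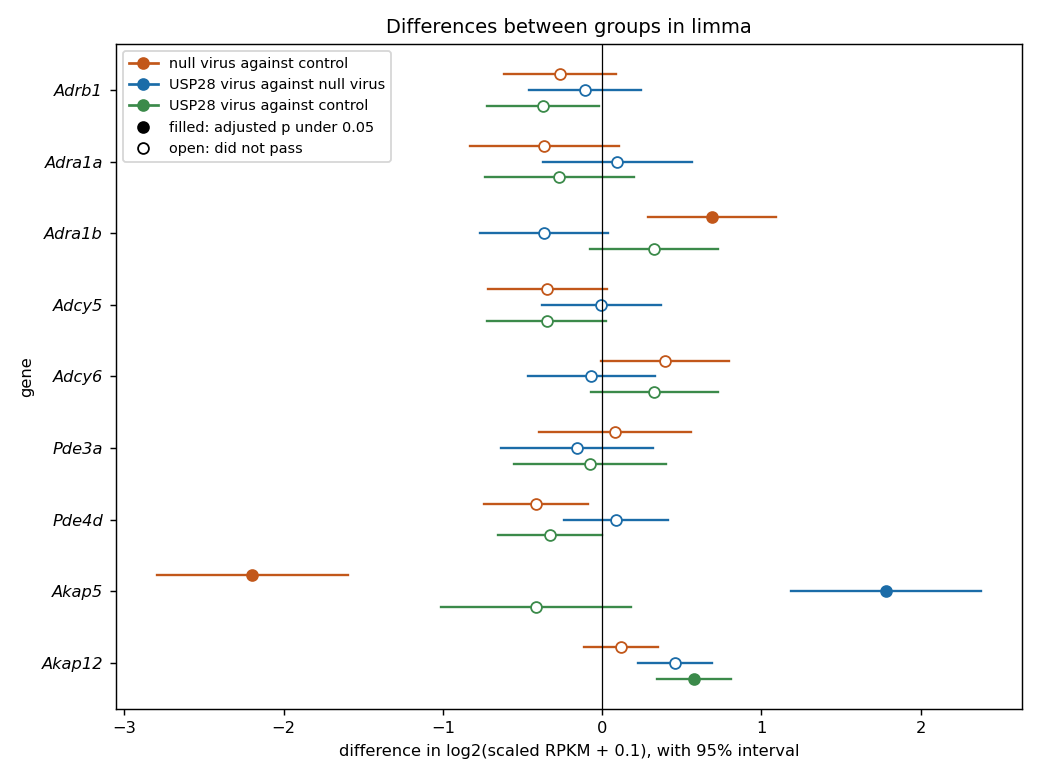
Difference in log2(scaled RPKM + 0.1) between groups (horizontal axis) with its 95% interval for each gene, in the 3 comparisons. Filled points passed at an adjusted p under 0.05. Akap5 is filled at -2.20 and 1.78, Adra1b at 0.69 and Akap12 at 0.57, and the other 23 points are open.

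Groups did not overlap for 4 of 9 members between null virus and control (1 higher, 3 lower), where 41.2% of all genes tested did not overlap (19.5% higher and 21.7% lower). The same held for 2 of 9 (both higher) between USP28 virus and null virus, against 23.2% (11.4% higher and 11.8% lower), and for 5 of 9 (2 higher, 3 lower) between USP28 virus and control, against 45.5% (21.4% higher and 24.1% lower). The median log2 difference of the members was -0.26, -0.0055 and -0.27 in that order, beside 0.0078, -0.000445 and -0.0031 over all genes.

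Promoter sequence is shown for Akap5 and Adra1b, which passed between null virus and control, and for Adrb1, the receptor at the head of the pathway. CREB, a transcription factor that protein kinase A phosphorylates, binds the element TGACGTCA and its core TGACG. The 250 bases before the RefSeq start (GRCm38.p6) were searched on both strands for each, and every full element also holds the core. RefSeq windows were found for 5 of the 9 members, 6 windows in all. They lie at chr12:76324641-76324890 (plus strand) for Akap5, chr11:43901238-43901487 (minus strand, the outer of the 2 windows listed) for Adra1b and chr19:56721867-56722116 (plus strand) for Adrb1, and capitals mark the core.
Akap5: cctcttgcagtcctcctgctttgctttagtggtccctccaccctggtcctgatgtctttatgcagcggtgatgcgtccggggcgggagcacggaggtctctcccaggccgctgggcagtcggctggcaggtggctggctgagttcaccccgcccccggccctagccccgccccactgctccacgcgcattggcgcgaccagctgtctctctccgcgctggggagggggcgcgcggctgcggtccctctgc
Adra1b: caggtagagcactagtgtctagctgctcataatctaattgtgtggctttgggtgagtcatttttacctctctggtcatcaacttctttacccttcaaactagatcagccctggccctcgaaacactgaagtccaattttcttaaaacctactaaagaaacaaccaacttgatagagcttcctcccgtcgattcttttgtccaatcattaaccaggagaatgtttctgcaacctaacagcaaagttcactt
Adrb1: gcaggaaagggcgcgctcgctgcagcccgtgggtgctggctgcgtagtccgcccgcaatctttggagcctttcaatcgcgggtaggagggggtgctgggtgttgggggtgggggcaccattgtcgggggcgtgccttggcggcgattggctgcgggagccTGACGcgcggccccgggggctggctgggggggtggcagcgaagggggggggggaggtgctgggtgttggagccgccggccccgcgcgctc
The core was present in 1 member, Adrb1, where it begins 90 bases before the start, and the full element in none of the 5. Of all 32851 RefSeq windows of this length, 17.8% held the core and 1.55% the full element. These letters are absent from the Akap5 window, which is 70.0% G and C, and from the Adra1b window, which is 41.6%. A match or its absence describes the window alone.

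Beyond the 9 members, 135 other genes of the pathway were listed, of which 130 were in the table and 108 were tested. Between null virus and control 14 rose and 19 fell, 30.6% of those tested beside 22.4% of all genes. Between USP28 virus and null virus 1 passed (0.926% beside 0.425%), and between USP28 virus and control 13 rose and 10 fell (21.3% beside 11.8%). Without null-virus replicate 1 the counts were 19 and 26, 3 and 5, and 17 and 25, where all genes gave 31.3%, 6.40% and 28.9% in either direction. Without USP28-virus replicate 1 they were 10 and 14, 0 and 0, and 5 and 1, where all genes gave 17.3%, 0% and 2.64%.

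Of 9 subunits and inhibitors of protein kinase A listed, 6 were tested. With null virus 5 of 6 fell against control and 0 rose, with a median log2 difference of -0.68, where 12.2% of all genes fell. With USP28 virus 4 of 6 fell and 0 rose (-0.56), where 6.53% of all genes fell. The exceptions were Pkig, an inhibitor, at 0.14 with null virus (limma adjusted p = 0.49), and Prkacb, a catalytic subunit, at -0.29 with USP28 virus (adjusted p = 0.20). Prkaca, the main catalytic subunit, was at 46.7 ± 1.56 scaled RPKM (SD, n = 3) in control, 27.3 ± 3.39 with null virus, then 30.9 ± 5.40 with USP28 virus (log2 -0.78 and -0.61 against control, limma adjusted p = 0.0070 and 0.028). Prkar2a, the type II regulatory subunit that anchoring proteins bind, was at 9.61 ± 0.310, 4.18 ± 1.37 and 4.53 ± 0.537 (log2 -1.23 and -1.07). Pkia, the inhibitor peptide, was at 22.3 ± 1.86, 7.78 ± 1.18 and 9.65 ± 2.63 (log2 -1.51 and -1.23). All 6 db/db values lay below all control values for these 3 genes, and for Prkar1a and Prkacb as well. Between the db/db groups 0 of 6 passed in limma (0 at an unadjusted p under 0.05), and limma voom called 0 as well. The fall was 4 of 6 with null virus without null-virus replicate 1, and 1 of 6 with USP28 virus without USP28-virus replicate 1 or 3, without control replicate 2 or 3, with library totals alone or with mitochondrial genes left out. It was 3 of 6 with null virus without control replicate 2 or 3. All genes passing in either direction moved as well. With null virus they were 31.3% without null-virus replicate 1 and 10.6% and 10.5% without control replicates 2 and 3, beside 22.4%. With USP28 virus they were 2.64% and 4.31% without USP28-virus replicates 1 and 3, and 3.36% and 3.16% without control replicates 2 and 3. They were 6.53% with library totals and 6.55% with mitochondrial genes left out, beside 11.8% as reported. Across all alternatives none of the 6 was called higher. The summed level of 10 cardiomyocyte markers was 39911 to 44668 in control, 34151 to 50833 with null virus and 35792 to 41003 with USP28 virus, with 3 of 10 lower against control in each db/db group. Myh6 was the largest part of that sum, at means of 18142, 13929 and 16694 in the same order. The part of cardiomyocytes in these values was not tested.

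**Figure D5:**
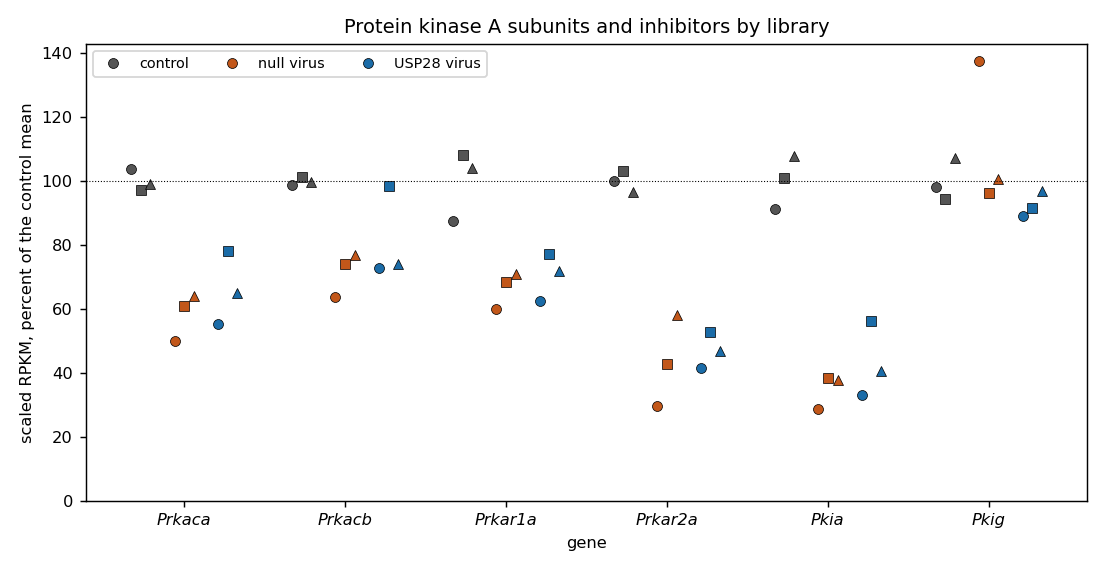
Scaled RPKM of the 6 tested protein kinase A subunits and inhibitors in each library, as a percent of the control mean (vertical axis, from 0, dotted line at 100). For Prkaca, Prkar1a, Prkar2a and Pkia the 6 db/db libraries lie below the 3 control libraries. Those of Prkacb do so narrowly (highest db/db value 98.4, lowest control value 98.8), and Pkig, another inhibitor, lies around 100 in most libraries.

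Other adrenergic receptors named here were scarce. Adrb3, Adra1d, Adra2b and Adra2c were under the filter, and Adrb3 was listed at 0 in 7 of 9 libraries. Adra1d, the third alpha-1 receptor, was at 0.199, 0.295 and 0.408 scaled RPKM in control, 0.105, 0.0528 and 0.0355 with null virus, then 0.210, 0.227 and 0.172 with USP28 virus. Its null-virus values lay below all others, as those of Akap5 did, but the gene was not tested and was singled out after its values were seen.

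Against control, 10.2% of all genes tested rose and 12.2% fell with null virus, and 5.32% rose and 6.53% fell with USP28 virus. Of 14 tested G protein subunits 2 rose and 2 fell with null virus against control and 0 passed in the other comparisons. Gnas, which encodes the stimulatory alpha subunit, rose by 0.31 on the log2 scale (limma adjusted p = 0.036) and Gnb2 by 0.39, and Gnb5 fell by 0.65. Of 11 genes that turn receptor signals off, 3 rose with null virus, then 2 with USP28 virus against control, and 0 fell. Grk5, a kinase that phosphorylates active receptors, was at 8.22 ± 0.503 scaled RPKM (SD, n = 3) in control, 18.3 ± 7.06 with null virus, then 9.16 ± 0.299 with USP28 virus, and rose with null virus (log2 1.06, adjusted p = 0.024). Rgs2, which speeds the shut-off of Gq, rose by 0.88 with null virus and by 1.32 with USP28 virus, and Rgs3 by 0.38 and 0.48.

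Among 3 other cyclases tested, Adcy4 rose (log2 0.76, limma adjusted p = 0.010) and Adcy7 fell (-0.53, adjusted p = 0.030) with null virus against control. Of 14 other phosphodiesterases 2 rose and 1 fell with null virus, and 1 rose with USP28 virus. Pde11a, which breaks down both cyclic nucleotides, rose by 0.71 and 0.83, Pde4c rose by 0.72 with null virus and Pde4a fell by 0.64 on the log2 scale. Of 12 other anchoring proteins 2 rose and 2 fell with null virus, and 1 rose and 1 fell with USP28 virus. Akap1, which tethers the kinase to the outer mitochondrial membrane, was at 29.0 ± 1.03 scaled RPKM (SD, n = 3) in control, 15.6 ± 1.63 with null virus, then 19.0 ± 1.97 with USP28 virus (log2 -0.89 and -0.62, adjusted p = 0.0016 and 0.012). Akap8, a nuclear anchoring protein, rose by 0.38 and 0.40, and its relative Akap8l rose by 0.53 with null virus. None of these lists had a member that passed between USP28 virus and null virus, where 0.425% of all genes passed. Against control 22.4% of all genes passed with null virus and 11.8% with USP28 virus.

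Among 7 tested effectors of cyclic AMP other than protein kinase A, Rapgef3, the exchange factor Epac1, rose by 0.88 with null virus, then 0.91 with USP28 virus on the log2 scale (limma adjusted p = 0.0012 and 0.0028). Hcn2, a pacemaker channel gated by cyclic AMP, fell by 1.36 and 0.87, and Bves, a membrane protein that binds cyclic AMP, fell by 0.84 with USP28 virus. Of 12 substrates of the kinase in the cardiomyocyte, 4 fell with null virus, then 1 with USP28 virus and 0 rose. Of all genes 12.2% fell with null virus and 6.53% with USP28 virus, both against control. Mybpc3, cardiac myosin-binding protein C, fell by 0.88, the giant spring protein gene Ttn by 0.77 and the potassium channel gene Kcnq1 by 0.50 with null virus. Of 10 phosphatase and calcineurin genes 2 fell in each comparison with control, beside those same shares of all genes. Rcan1, an inhibitor of calcineurin, fell by 1.04 and 1.14, and Ppp3r1, the regulatory subunit of calcineurin, by 0.78 and 0.52.

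The CREB family and its target genes had 7 of 14 tested members higher and 0 lower with USP28 virus against control, with a median log2 difference of 0.61. Of all genes 5.32% were higher and 6.53% lower there. With null virus against control 2 were higher and 1 lower, where 10.2% and 12.2% of all genes were. Between USP28 virus and null virus 1 was higher, where 0.269% of all genes were. Nr4a2, an orphan nuclear receptor, was at 0.494 ± 0.00678 scaled RPKM (SD, n = 3) in control, 0.566 ± 0.329 with null virus, then 3.03 ± 0.886 with USP28 virus, and rose against both (log2 2.36 and 2.34, limma adjusted p = 0.0082 and 0.041). The rise against control passed in 20 of 20 alternatives, and the rise against null virus, the single pathway call between these groups, in 5 of 20 (adjusted p 0.0048 to 0.20). The latter was lost on leaving out any library other than null-virus replicate 1, where it was 1.87 (adjusted p = 0.0048). Sik1, a kinase that restrains CREB coactivators, rose by 1.78 and Per1, a clock gene, by 2.43 with USP28 virus against control. Per1 also rose with null virus against control (log2 1.42, limma adjusted p = 0.037), where Sik1 was at 0.85 (adjusted p = 0.051). Between USP28 virus and null virus neither passed, with Per1 at 1.02 (adjusted p = 0.25) and Sik1 at 0.93 (adjusted p = 0.15). The count of 7 was 3 without any 1 of the USP28-virus libraries or without control replicate 2, 4 without control replicate 1, with no filter or with the replicate block, and 7 higher with 1 lower without null-virus replicate 1. All genes passing in that comparison moved as well, from 11.8% to 2.64%, 5.62% and 4.31% without USP28-virus replicates 1, 2 and 3, to 7.37% and 3.36% without control replicates 1 and 2, and to 28.9% without null-virus replicate 1. The list holds immediate early genes that respond to many signals, and the sources used here give no time of tissue collection.

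All calls of named pathway genes passed without null-virus replicate 1, and the log2 difference of Pde4a was then -0.43 in place of -0.64. Calls were also gained in that fit. Between USP28 virus and null virus they were Grk5 (log2 -1.29, limma adjusted p = 0.00057), Bves (-0.69, 0.010) and Mybpc3 (0.53, 0.017). Between null virus and control Sik1 was gained (1.09, 0.015). Between USP28 virus and control Akap8l, Gnb5, Mybpc3, Pde4a and Ttn were gained (0.00066 for Ttn to 0.037 for Gnb5). That fit passed 31.3% of all genes between null virus and control, 6.40% between USP28 virus and null virus and 28.9% between USP28 virus and control. As reported these were 22.4%, 0.425% and 11.8%. Of 20 alternatives, 5 kept the call of Pde4c between null virus and control, 6 that of Rgs3 and 8 those of Gnas and Per1. Grk5 and Rcan1 kept theirs in 11 and Adcy7 in 10 of 19. Adcy4, Akap1, Gnb5, Hcn2, Mybpc3, Pkia, Ppp3r1, Prkaca, Prkar2a and Rapgef3 kept theirs in 20, and the rest named in 12 to 16. Without USP28-virus replicate 1, the calls between USP28 virus and control passed for Pkia, Rapgef3, Rgs2, Per1, Sik1 and Nr4a2. They were lost for Akap1, Akap8, Bves, Hcn2, Pde11a, Ppp3r1, Prkaca, Prkar2a, Rcan1 and Rgs3 (limma adjusted p 0.059 for Bves to 0.15 for Akap8). In that fit the calls of Gnas, Pde4c, Per1, Rcan1 and Rgs3 between null virus and control were lost too (limma adjusted p = 0.059, 0.077, 0.058, 0.053 and 0.067).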

How the data were processed

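Messenger RNA of 9 left ventricle libraries, 3 per group, was analysed from 1 deposited table of RPKM values for 30128 genes. Per the labels' protocols, polyadenylated RNA was made into directional libraries. Per the submitters' processing notes, the tools include HISAT2 and DESeq2 (neither version nor purpose stated), and the build is named GRCh38, although the table's symbols and coordinates are those of mouse: 25482 genes have spans identical to GENCODE M21 on GRCm38, and positions are given on that build. No source used here names the program that counted reads or whether it used strand. The deposited RPKM values times gene length are whole multiples of 1 step per library for 99.9839% of values above 0 (tolerance 0.01 reads), which gave the reads and depths, and all 81 values of the 9 members were whole reads.

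RPKM was scaled by a trimmed mean of M values (30% of ratios and 5% of levels trimmed, unweighted). The filter kept 14104 genes reaching RPKM 0.5 in 3 or more libraries. Values entered limma 3.58.1 (R 4.3.3, trended and robust prior) as log2(scaled RPKM + 0.1), with all 9 libraries in 1 fit of 3 groups and no covariate. Fold changes on that scale understate the change of low genes. The scaling and fit were also run on simulated reads with the same spread for all genes and no library that stood apart. That run cannot show how the fit behaves on these libraries. The Benjamini-Hochberg adjustment ran over all genes of a comparison. Ratios of relatives were compared by exact permutation tests (scipy 1.17.1).

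The members, lists and tests were chosen with earlier results of these data known. By rule all 9 members are named. Up to 3 passing genes of each list, with the smallest adjusted p, are named too, as are the 3 genes nearest in pattern to each member that passed, leaving out gene models and pseudogenes. Libraries of a group were not identical (chi-square per degree of freedom 19.1 to 144). Alternatives were other scalings, filters, pseudocounts and priors, a fit restricted to 2 groups, a block on replicate number, limma voom on recovered reads, and each library left out. Running them for the pathway lists was added after seeing the data. Results for a few genes of the pathway lists are not reported here, although the totals over the lists include them.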

Additional observations from a re-analysis of the deposited data

How the results depend on the processing

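Counts of members passing are small, so 1 call moves them. For null virus against control the count of 2 was 1 with library totals alone, with mitochondrial genes left out, with no filter, with a filter of RPKM 1 and when fitting just those 2 groups, and 1 to 4 with 1 library left out. Of all genes 17.2%, 17.4%, 6.86%, 26.4% and 11.7% passed in those settings in turn, beside 22.4% as reported. With 1 library left out 10.5% to 31.3% passed. The filter of RPKM 1 removes Akap5, and the other settings named lost Adra1b. For USP28 virus against null virus the count of 1, Akap5, was 0 with library totals alone, with mitochondrial genes left out, with no filter, with a filter of RPKM 1 (which removes Akap5), in a fit of the 2 groups alone and with the replicate block, and 0 to 3 with 1 library left out. Of all genes 0.220%, 0.191%, 0.0332% and 0.655% passed from library totals to the filter of RPKM 1, beside 0.425% as reported. With 1 library left out 0% to 6.40% passed. In that comparison limma called 0 of all 14104 genes in the fit of the 2 groups alone and with the block, and 60 as reported, with 2348 at an unadjusted p under 0.05. For USP28 virus against control the count of 1 was 3 in the fit of the 2 groups alone and 0 to 3 with 1 library left out. Of all genes 26.9% passed in the fit of the 2 groups alone and 2.64% to 28.9% with 1 library left out, beside 11.8% as reported. The causes were not tested.

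Replicate numbers did not pair the libraries: deviations of same-numbered libraries correlated at -0.029 to 0.060, and a library correlated best with its own number in 8 of 18 pairings of a library with another group. With the replicate block the counts of members were 2, 0 and 1 in the order above, where 19.5%, 0% and 9.25% of all genes passed. Akap5 was then at limma adjusted p = 0.079 between USP28 virus and null virus.

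Of 531 log2 differences of members under alternatives, 12 changed sign, all of values that did not pass. Pde3a for null virus against control was -0.056 and -0.052 without null-virus replicates 2 and 3, and up to 0.36 with another library left out. For USP28 virus against null virus Adra1a was -0.019 without USP28-virus replicate 2 and up to 0.20 otherwise. In that comparison Adcy5 was 0.083 with library totals alone, 0.091 with mitochondrial genes left out, 0.107 and 0.086 without null-virus replicates 2 and 3 and 0.053 without USP28-virus replicate 1, and Adcy6 was 0.024, 0.032, 0.077 and 0.012 under the first 4 of these; without null-virus replicate 1 they were -0.22 and -0.30. The log2 ratio of Adcy5 to Adcy6 between these groups was -0.017 without USP28-virus replicate 2 and 0.10 without replicate 3. Reads limit the receptors and Akap5 most: Akap5 held 12 to 34 reads with null virus, and library totals alone shift the median gene by 0.086 between USP28 virus and null virus.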
